A study of Rattus norvegicus with 54 samples.

Results

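The 9 genes described here encode the signals that draw monocytes into injured heart muscle and the receptors that read them: the soluble CC ligands Ccl2, Ccl7, Ccl3 and Ccl4, the membrane-bound ligands Cx3cl1 and Cxcl16, and the receptors Ccr1, Ccr2 and Cx3cr1. They were matched by symbol among the 40319 genes listed in each count table, and 9 of 9 were found and passed the filter on low counts in every comparison. Poly(A) RNA was sequenced from the left ventricle of 18 female athymic rats of the F344/NJcl-rnu/rnu strain, operated on at 8 weeks of age and sampled 1 week later. The 3 treatments, with 6 animals each, were sham surgery, myocardial infarction by ligation of the left anterior descending coronary artery (untreated MI), and the same ligation followed by a bi-level sheet of human smooth muscle cells and endothelial progenitor cells laid on the epicardium (cell sheet). From each heart 3 libraries were made, of the infarct, border and remote zones, 54 in all, and in sham hearts the zone names mark matching positions in uninjured muscle. Animals of this strain lack a thymus and so most T cells, but keep NK cells, neutrophils, monocytes and macrophages. Technical replicates is the labels' name for the 6 members of a group, whereas the study describes separate animals. The p-values therefore measure the spread between these libraries, and RNA of the human cells was aligned to the rat genome with the rest.

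Ccl2 and Ccl7 are best known as ligands of Ccr2, the receptor by which classical inflammatory monocytes leave the bone marrow and enter infarcted myocardium. Ccl3 acts on Ccr1 of monocytes, macrophages and other leukocytes, and Ccl4 is its close relative. Cx3cl1 (fractalkine) and Cxcl16 are made as membrane-anchored proteins that hold cells carrying Cx3cr1 and Cxcr6, and the proteases Adam10 and Adam17 cut them from the surface. Cx3cr1 marks patrolling monocytes and many tissue macrophages. In tissue RNA, fewer cells of a type and less RNA per cell cannot be told apart.

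In the gene order of the RefSeq table (assembly GRCr8), Ccl2 lies next to Ccl7 and Ccl3 next to Ccl4 on chromosome 10, which also holds Cxcl16. Cx3cl1 stands between Ccl17 and Ccl22 on chromosome 19. Ccr1, Ccr2 and Cx3cr1 are on chromosome 8, where Ccr2 follows Ccr1l1, a relative of Ccr1. Promoters of 6 of the 9 genes were present in the RefSeq table of that assembly. The 250 bases before the annotated start are printed for 3 ligands, 5′ to 3′ on the gene's strand. Ccl7 was chosen as the CC ligand with an entry. Cx3cl1 was chosen because it fell after infarction in the infarct and border zones. Cxcl16 was chosen because it was lower in the border and remote zones of cell sheet-treated hearts. The windows are Ccl7 at chr10:67513845-67514094 (+ strand), Cx3cl1 at chr19:10242821-10243070 (− strand) and Cxcl16 at chr10:55669951-55670200 (− strand). Capitals mark matches to a TATA box (TATAAA), an AP-1 element (TGANTCA) or the core that PU.1 binds (GAGGAA), searched on both strands.
Ccl7: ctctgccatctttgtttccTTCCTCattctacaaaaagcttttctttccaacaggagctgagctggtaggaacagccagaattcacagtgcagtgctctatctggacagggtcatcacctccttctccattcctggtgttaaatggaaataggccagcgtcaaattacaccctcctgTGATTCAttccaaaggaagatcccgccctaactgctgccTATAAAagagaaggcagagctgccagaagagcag
Cx3cl1: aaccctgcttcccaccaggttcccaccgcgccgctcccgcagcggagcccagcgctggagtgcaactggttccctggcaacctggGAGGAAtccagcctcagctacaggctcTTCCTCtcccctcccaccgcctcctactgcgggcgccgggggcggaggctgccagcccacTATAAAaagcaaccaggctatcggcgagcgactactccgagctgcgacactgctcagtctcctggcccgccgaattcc
Cxcl16: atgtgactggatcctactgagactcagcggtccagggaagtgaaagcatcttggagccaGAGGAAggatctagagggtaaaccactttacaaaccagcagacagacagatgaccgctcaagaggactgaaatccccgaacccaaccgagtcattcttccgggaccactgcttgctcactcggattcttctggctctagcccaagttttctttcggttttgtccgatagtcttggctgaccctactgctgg
The Ccl7 window held TATAAA 34 bases, TGATTCA 73 bases and, on the opposite strand, the PU.1 core 231 bases before the start. The Cx3cl1 window held TATAAA 78 bases before the start and the PU.1 core at 165 and, on the opposite strand, 138 bases. The Cxcl16 window held 1 match, the PU.1 core at 191 bases, and no TATAAA. Of 33465 rat promoters searched in the same way, 12.9% held TATAAA, 6.34% the AP-1 element and 23.3% the PU.1 core. The NF-kappaB consensus, in 3.54% of them, was not found in the windows of the 6 genes. None of these matches was set against binding data.

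Libraries held between 12699204 and 23397754 counts on genes (median 17216360), and levels are given as CPM, counts relative to library size after TMM scaling. The animal labelled sham replicate 5 stood apart from the other 5 sham animals in each zone. Its summed level of 16 monocyte and macrophage markers was 13860 CPM in the infarct zone against 543 to 1031 CPM in the others, 13860 against 449 to 899 CPM in the border zone and 8109 against 432 to 841 CPM in the remote zone. Its 10 T and NK cell markers summed to 520, 637 and 419 CPM in those zones, where the other 5 sham animals had 8.64 to 37.1 CPM, while its 8 fibroblast markers (3365 to 3716 CPM) were near theirs (2349 to 3952 CPM) and its 10 cardiomyocyte markers were lower (22750 to 36930 against 60920 to 77530 CPM). The animal labelled cell sheet replicate 1 stood apart in the remote zone, with 3613 CPM of macrophage markers against 544 to 987 CPM and 27050 CPM of fibroblast markers against 2295 to 6565 CPM. Its border zone library held 177 CPM of cardiomyocyte markers, where the other 5 held 9384 to 31850 CPM, so that heart muscle markers were almost absent there. What made these animals differ was not tested, and results that rest on them are given with and without them.

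**Figure D1:**
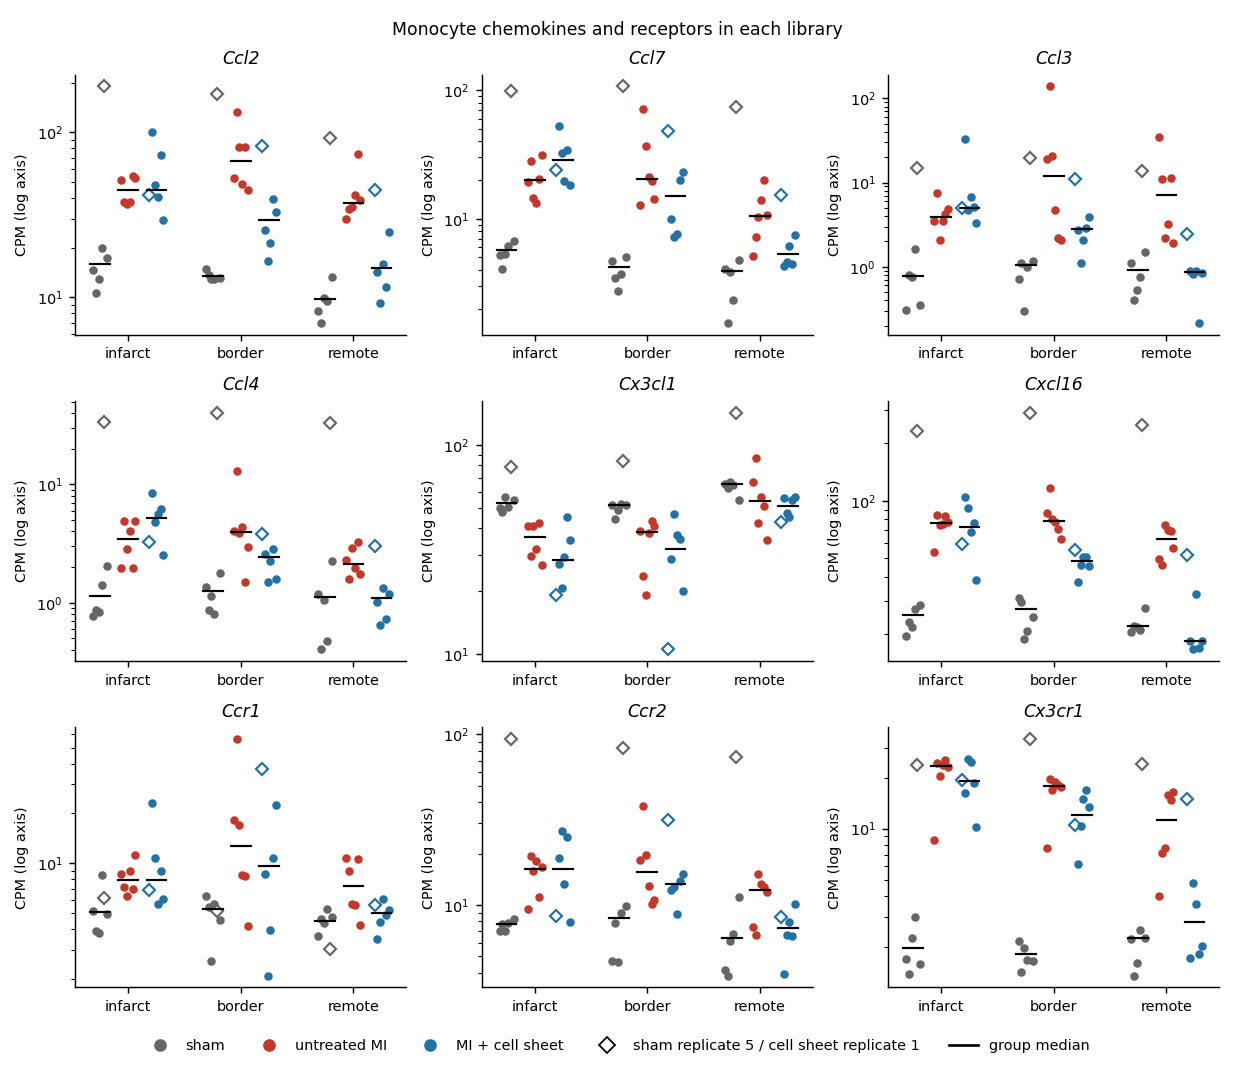
Levels of the 9 genes in each of the 54 libraries (CPM on a log axis), grouped by zone and treatment. Each point is a library, bars are group medians, and open diamonds are sham replicate 5 and cell sheet replicate 1. In sham replicate 5, Cxcl16 was at 233 to 290 CPM, above every other library, whereas its Ccr1 was within the range of the other sham animals in the infarct and border zones and lowest in the remote zone.

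In sham replicate 5, 8 of the 9 genes were the highest of their sham group in each zone. Its Ccl2 was at 190 CPM (infarct), 172 CPM (border) and 92.2 CPM (remote), against 7.02 to 20 CPM in the other 5 sham animals. Its Cxcl16 was at 233, 290 and 250 CPM against 18.8 to 31.1 CPM. Ccr1 was the exception, at 6.12, 5.10 and 3.02 CPM against 2.57 to 8.46 CPM. This animal decided most of what follows on infarction itself.

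The comparison of untreated MI with sham asked how infarction changed these genes in each zone. With all animals, 3 of 9 passed the threshold in the infarct zone (49.9% of 15758 genes tested did), 2 of 9 in the border zone (41.7% of 15641) and 1 of 9 in the remote zone (25.8% of 15294), by edgeR's quasi-likelihood F test with Benjamini-Hochberg adjustment over all genes and a threshold of 0.05. Without sham replicate 5 the counts were 9 of 9 (64.8% of 16107), 9 of 9 (60.8% of 15849) and 8 of 9 (46.5% of 15444). In the fits without that animal the members called were higher after infarction, apart from Cx3cl1, which was lower in the infarct and border zones and was not called in the remote zone. With all animals the share of members called was below that of all genes in each zone. Leaving out sham replicate 1, 2, 3 or 6 or MI replicate 4 or 6 lowered the infarct zone count to 1, and leaving out sham replicate 1, 2 or 3 or MI replicate 1 or 5 lowered the remote zone count to 0.

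Ccl2, the main monocyte attractant of infarcted hearts, had a low, median and high value of 37.0, 44.8 and 54.3 CPM in the infarct zone of untreated MI. The 5 sham animals other than replicate 5 lay at 10.7 to 20 CPM, below all of these, and replicate 5 far above them. The log2 fold change of MI over sham was 0.01 ± 0.68 (SE, n = 6 each, edgeR adjusted p = 0.993) with all animals and 1.58 ± 0.18 (adjusted p = 3.88e-05) without sham replicate 5. In the border zone Ccl2 was at 44.8, 67.4 and 133 CPM after MI and at 12.9 to 14.9 CPM in those 5 sham animals, a log2 fold change of 2.45 ± 0.27 without replicate 5 and 0.88 ± 0.71 with it. In the remote zone, far from the ligated territory, it was at 29.8, 37.2 and 73.7 CPM after MI and at 7.02 to 13.3 CPM in the 5 sham animals. The log2 fold change there was 2.15 ± 0.23 without replicate 5 and 0.83 ± 0.61 with it (edgeR adjusted p = 0.338). By limma-voom with all animals Ccl2 was called higher in the border zone (adjusted p = 0.0472) and the remote zone (0.0381). A block on replicate number called it higher in both as well (edgeR adjusted p = 0.0468 and 0.00747). Neither called it in the infarct zone (limma-voom adjusted p = 0.189, edgeR with the block 0.106).

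Ccl7, the neighbour of Ccl2 and a second ligand of Ccr2, followed it. It was at 13.3, 19.9 and 31.2 CPM in the infarct zone of MI hearts, against 4.08 to 6.71 CPM in 5 sham animals and 98.7 CPM in replicate 5. Its log2 fold change moved from −0.02 ± 0.79 to 1.95 ± 0.24 when that animal was left out, from 0.46 ± 0.94 to 2.90 ± 0.46 in the border zone and from −0.45 ± 0.86 to 1.77 ± 0.35 in the remote zone. Thus the sign by edgeR turned with 1 animal in 2 of the 3 zones. It turned with the tool as well. By limma-voom with all animals Ccl7 was at 1.08 ± 0.62 in the infarct zone (adjusted p = 0.156). In the remote zone it was at 0.92 ± 0.71 (limma-voom adjusted p = 0.353).

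Ccl3 and Ccl4, the macrophage inflammatory proteins, were present at few counts in sham hearts. Ccl3 was at 0.302 to 1.64 CPM in 5 sham animals over the 3 zones and at 2.08, 3.9 and 7.49 CPM (lowest, median and highest) in the infarct zone of MI hearts. Its border zone levels ranged from 2.06 to 139 CPM after MI, with a median of 11.9 CPM, and replicate 2 held the highest value. MI replicate 2 also had the highest neutrophil marker sum of the border zone (424 CPM, against 14.1 to 221 CPM in the other 5), and the part of these cells in the result was not tested. The log2 fold change of Ccl3 was 2.93 ± 1.27 (edgeR adjusted p = 0.0804) with all animals and 5.19 ± 1.25 (0.00360) without sham replicate 5. With all animals DESeq2 called Ccl3 in the border zone (2.94 ± 1.18, adjusted p = 0.0374), and limma-voom did not (adjusted p = 0.154). Ccl4 was at 1.95, 3.45 and 4.89 CPM in the infarct zone after MI and at 0.769 to 2.03 CPM in 5 sham animals, so that those groups overlapped slightly. With all animals its log2 fold changes, for infarct, then border, then remote zone, were −0.98 ± 0.93, −0.64 ± 1.01 and −1.52 ± 0.97, and they were 1.54 ± 0.36, 2.06 ± 0.51 and 1.09 ± 0.41 without sham replicate 5. By limma-voom with all animals they were 0.58 ± 0.76, 0.76 ± 0.87 and 0.34 ± 0.83, none past the threshold.

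Cx3cl1, the ligand of Cx3cr1 made by endothelium among other cells, was the member that fell. In the infarct zone it was at 26.9, 36.4 and 42.6 CPM in MI hearts and at 47.7, 52.8 and 78.7 CPM in sham hearts, and the groups did not overlap with or without sham replicate 5. The log2 fold change was −0.67 ± 0.16 (edgeR adjusted p = 0.00523) and −0.55 ± 0.13 (0.00305) without that animal. In the border zone, where the groups did not overlap either (19.1 to 43.6 against 44.5 to 83.9 CPM), it was −0.71 ± 0.22 (adjusted p = 0.0218). Remote zone groups overlapped (35.3 to 87.0 against 54.7 to 143 CPM) and the test was not passed (−0.44 ± 0.26, adjusted p = 0.241). The scaling mattered here: on library size alone the median of all genes moved from −0.02 to 0.24 in the infarct zone, and Cx3cl1 then stood at −0.42 ± 0.17 (adjusted p = 0.0577) there and at −0.54 ± 0.22 (0.0671) in the border zone, in the same direction but no longer past the threshold. The summed endothelial markers had a median of 1260 CPM (1017 to 1846) in the infarct zone of MI hearts and of 1754 CPM in sham hearts, where replicate 5 was at 829.5 CPM and the others at 1670 to 1918 CPM. Of 10 endothelial markers, 1 fell in the infarct and 1 in the border zone with all animals (median log2 fold changes −0.18 and −0.14), and 2 and 4 fell without sham replicate 5 (−0.29 and −0.28). Their part in the result was not tested.

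Cxcl16, the membrane-bound ligand of Cxcr6, differed in the other direction. It was at 53.8, 76.3 and 84.1 CPM in the infarct zone of MI hearts, at 62.9, 78.9 and 116 CPM in the border zone and at 46.2, 63.2 and 75.2 CPM in the remote zone. The 5 sham animals had 18.8 to 31.1 CPM in all zones, below every MI library. Its log2 fold changes with all animals were 0.33 ± 0.61, 0.25 ± 0.66 and −0.00 ± 0.63, and without sham replicate 5 they were 1.64 ± 0.13, 1.72 ± 0.18 and 1.45 ± 0.14 (edgeR adjusted p = 1.36e-05, 3.11e-05 and 1.10e-05).

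Of the receptors, Ccr1 rose in each zone with all animals. It was at 6.35, 7.90 and 11.3 CPM in the infarct zone of MI hearts and at 3.76, 5.05 and 8.46 CPM in sham hearts, overlapping groups with a log2 fold change of 0.61 ± 0.22 (edgeR adjusted p = 0.0369). Its border zone value was 1.93 ± 0.54 (adjusted p = 0.0152), where MI replicate 2 reached 56.1 CPM and the other 5 lay at 4.18 to 18.3 CPM. Its remote zone value was 0.83 ± 0.25 (adjusted p = 0.0288). Leaving out sham replicate 5 changed these to 0.65 ± 0.23, 1.94 ± 0.59 and 0.75 ± 0.25, all past the threshold. The calls in the infarct and remote zones were those that the left-out animals named above ended, and a fit sharing the spread over all 9 groups ended both too (edgeR adjusted p = 0.249 and 0.187). By limma-voom Ccr1 was not called in the border zone (adjusted p = 0.0778) or the remote zone (0.0558). With a block on replicate number these 2 calls were lost as well (edgeR adjusted p = 0.0628 and 0.0798).

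Ccr2, the receptor of Ccl2 and Ccl7, was at 9.49, 16.2 and 19.4 CPM in the infarct zone after MI, against 7.0 to 8.31 CPM in 5 sham animals and 93.5 CPM in replicate 5. Its log2 fold change moved from −0.56 ± 0.68 to 1.00 ± 0.18 without that animal, from −0.13 ± 0.72 to 1.35 ± 0.37 in the border zone and from −0.67 ± 0.68 to 0.81 ± 0.28 in the remote zone. By limma-voom with all animals the values were 0.25 ± 0.55, 0.51 ± 0.63 and 0.20 ± 0.59 in the same order, none past the threshold.

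Cx3cr1, the receptor of Cx3cl1, was in the infarct zone at 8.59, 23.4 and 25.4 CPM in MI hearts, and in sham hearts at 1.38 to 2.99 CPM but for replicate 5 at 23.7 CPM. The log2 fold change was 1.87 ± 0.70 (edgeR adjusted p = 0.0430) and, without that animal, 3.40 ± 0.31 (1.63e-05). The call with all animals was lost on leaving out any other sham animal or any MI animal but replicate 1 (edgeR adjusted p 0.0612 to 0.0848), and with no filter on low counts (0.0531). In the border and remote zones it was 1.19 ± 0.80 and 0.91 ± 0.71 with all animals and 3.21 ± 0.25 and 2.47 ± 0.36 without. By limma-voom with all animals Cx3cr1 was called in the border zone (2.28 ± 0.62, adjusted p = 0.0129) but not in the remote zone (1.68 ± 0.61, 0.0569). A block on replicate number called it in both (edgeR adjusted p = 0.0368 and 0.0263). Cx3cl1 and its receptor Cx3cr1 thus differed in opposite directions in the same infarct zone libraries.

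**Figure D2:**
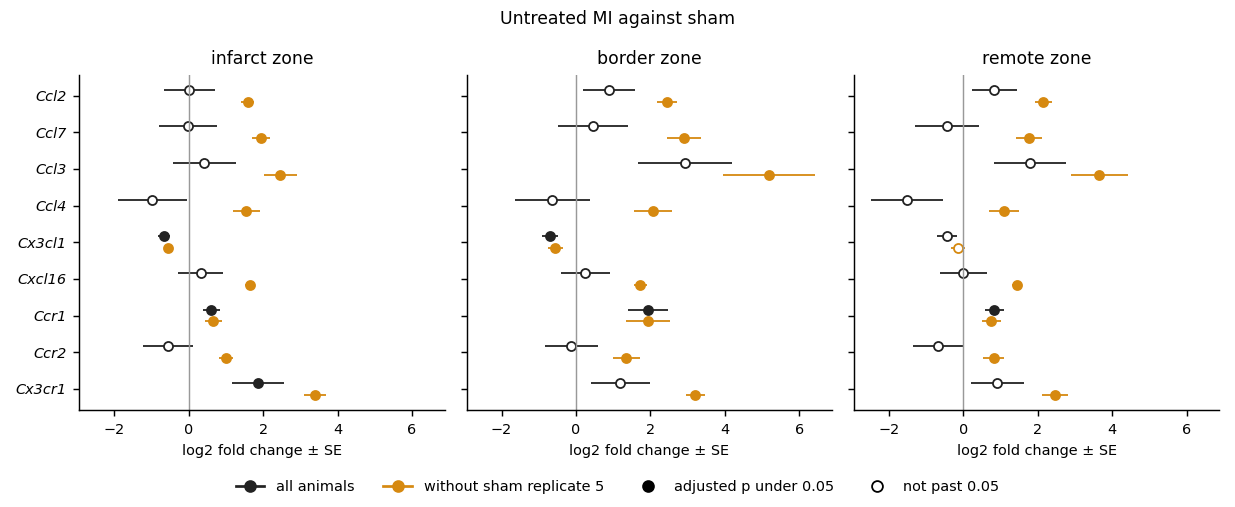
Log2 fold change of untreated MI over sham (± SE, edgeR) for the 9 genes in the 3 zones, with all animals (black) and without sham replicate 5 (orange). Filled points are past an adjusted p of 0.05. Without that animal 8 genes lie to the right of 0 in each zone, and Cx3cl1 lies to the left, past the threshold in the infarct and border zones.

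The macrophage markers moved with these genes. Of 16, 6 rose and none fell in the infarct zone with all animals (median log2 fold change 1.39), and 16 rose without sham replicate 5 (2.52). Of all genes tested there, 49.9% were called with all animals and 64.8% without that animal. The summed level of the 16 markers was 3143 to 12760 CPM in the infarct zone after MI, 3299 to 10110 CPM in the border zone and 1135 to 3620 CPM in the remote zone. Msr1, a scavenger receptor of macrophages, rose by a log2 fold change of 2.22 ± 0.51 in the infarct zone (edgeR adjusted p = 0.00470). Of the other cell types in the infarct zone, 4 of 4 neutrophil markers tested rose, 7 of 8 fibroblast markers rose, and 10 of 10 cardiomyocyte markers fell. Of 10 T and NK cell markers 2 fell and none rose with all animals (median −1.62), whereas 5 rose and 2 fell without sham replicate 5 (median 1.67). The part of cell numbers in the levels of the 9 genes was not tested.

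The comparison of cell sheet-treated with untreated MI hearts asked whether the sheet changed the signal a week after infarction. In the infarct zone none of the 9 genes passed the threshold (0 of 16196 genes did, 0%). None of the 9 had an unadjusted p under 0.05, and DESeq2 and limma-voom called 0 of them too, DESeq2 among the 8 with an adjusted p. The groups overlapped for each gene: Ccl2 was at 29.3, 45.0 and 101 CPM under the sheet and at 37.0, 44.8 and 54.3 CPM without it, a log2 fold change of 0.29 ± 0.27. The log2 fold changes ran from −0.27 ± 0.21 for Cx3cl1 to 1.16 ± 0.56 for Ccl3, and 6 of the 9 were above 0.

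In the border zone 1 of 9 was called, against 18.0% of 16272 genes tested, and each of the 9 had a log2 fold change below 0 (median −0.58, against −0.00 over all genes). Cxcl16 fell. It was at 37.5, 48.4 and 55.6 CPM in cell sheet hearts and at 62.9, 78.9 and 116 CPM in untreated MI hearts, so that the groups did not overlap, with a log2 fold change of −0.77 ± 0.14 (edgeR adjusted p = 0.00391). Macrophage marker sums in the same libraries were 2086 to 7092 CPM (median 3417) under the sheet and 3299 to 10110 CPM (median 7195) without it, with 2 of the 16 markers lower and none higher, and their part in the result was not tested. Cxcr6, the receptor of Cxcl16, had a log2 fold change of −0.64 ± 0.33 that was not past the threshold (adjusted p = 0.199). A fit that shared the spread over all 9 groups did not call Cxcl16 (−0.79, edgeR adjusted p = 0.410).

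Of the CC ligands in the border zone, Ccl2 was at 16.6, 29.3 and 82.5 CPM in cell sheet hearts against 44.8, 67.4 and 133 CPM (−1.003 ± 0.40, edgeR adjusted p = 0.09996), and Ccl3 at 1.12, 2.81 and 11.1 CPM against 2.06, 11.9 and 139 CPM (−2.96 ± 1.03, adjusted p = 0.0666). In each, cell sheet replicate 1 held the highest value of its group, in the library that almost lacked heart muscle markers. Without that animal 3 of 9 were called (18.8% of 16423 genes): Ccl2 at −1.42 ± 0.32 (adjusted p = 0.0117), Ccl3 at −3.61 ± 1.10 (0.0416) and Cxcl16 at −0.82 ± 0.15 (0.00506). Without MI replicate 5 or 6 the count was 2. With all animals DESeq2 called Ccl3 (−2.95 ± 0.97, adjusted p = 0.0158) besides Cxcl16, and limma-voom did not call Ccl3 (adjusted p = 0.310). Neither called Ccl2 (DESeq2 adjusted p = 0.0587, limma-voom 0.0711). The values of Ccl7 (−0.58 ± 0.55), Ccl4 (−1.01 ± 0.45), Cx3cl1 (−0.18 ± 0.32) and the receptors Ccr1 (−0.39 ± 0.72), Ccr2 (−0.21 ± 0.37) and Cx3cr1 (−0.43 ± 0.26) were not past the threshold.

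In the remote zone 2 of 9 were called (17.1% of 15374 genes), and again each of the 9 was below 0 (median −0.79). Ccl3 was at 0.217, 0.865 and 2.48 CPM in cell sheet hearts and at 1.91, 7.05 and 35.2 CPM in untreated MI hearts (−3.37 ± 0.76, edgeR adjusted p = 0.0146). Cxcl16 was at 16.7, 18.4 and 52.0 CPM against 46.2, 63.2 and 75.2 CPM (−1.25 ± 0.28, adjusted p = 0.0149), and cell sheet replicate 1 was the single library that overlapped the MI group. A fit with all 9 groups ended the call of Cxcl16 (adjusted p = 0.154) and limma-voom that of Ccl3 (−2.76, adjusted p = 0.0594), which a filter of 10 counts in every library removed from the test. In the other 5 cell sheet animals Cxcl16 was at 16.7 to 32.5 CPM, where the 5 sham animals other than replicate 5 had 20.4 to 27.4 CPM. Ccl2 with all animals was not called by edgeR (−1.07 ± 0.36, adjusted p = 0.0568) or with a replicate block (edgeR adjusted p = 0.0867). It was called lower by DESeq2 (−1.08 ± 0.35, adjusted p = 0.0163) and limma-voom (−1.22 ± 0.34, adjusted p = 0.0275). Without cell sheet replicate 1, 7 of 9 were called, all lower, against 41.6% of 15502 genes, and they were Ccl2 (−1.49 ± 0.27), Ccl7 (−1.08 ± 0.30), Ccl3 (−3.86 ± 0.78), Ccl4 (−1.23 ± 0.30), Cxcl16 (−1.59 ± 0.19), Ccr2 (−0.68 ± 0.26) and Cx3cr1 (−1.99 ± 0.39). Cx3cl1 stayed at −0.14 ± 0.19 and Ccr1 at −0.68 ± 0.26, whose adjusted p of 0.05005 missed the threshold narrowly. Macrophage markers moved beside them, with 15 of 16 lower in that fit and 3 of 16 with all animals, and marker sums of 544 to 987 CPM in the 5 cell sheet animals against 1135 to 3620 CPM in MI hearts.

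**Figure D3:**
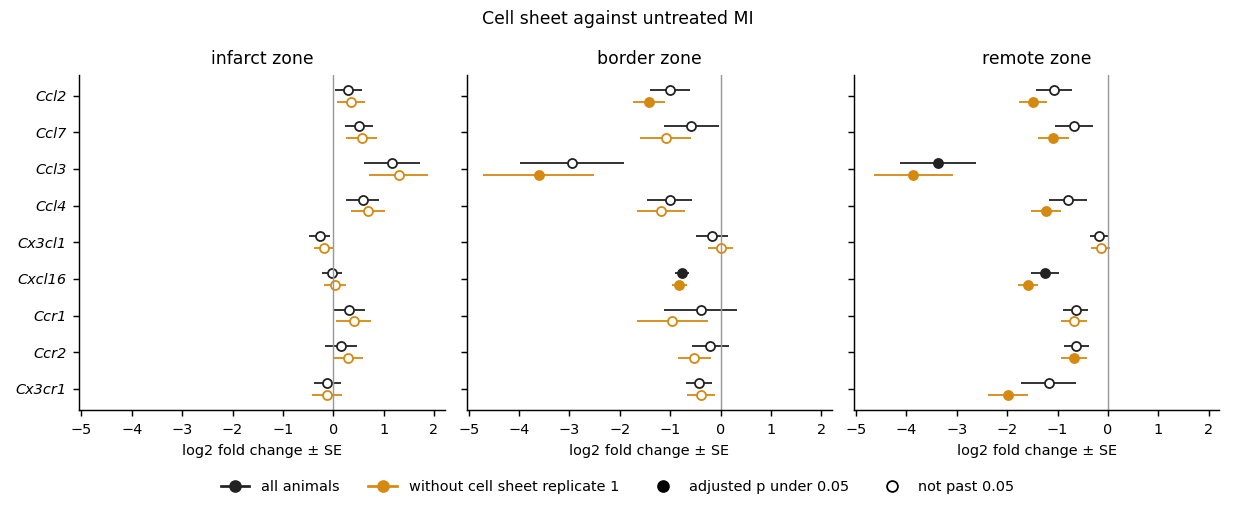
Log2 fold change of cell sheet-treated over untreated MI hearts (± SE, edgeR) for the 9 genes in the 3 zones, with all animals (black) and without cell sheet replicate 1 (orange). Filled points are past an adjusted p of 0.05. No gene is filled in the infarct zone, whereas in the border and remote zones with all animals each of the 9 lies left of 0.

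When the infarct and border libraries of each heart were summed, 0 of 9 passed the threshold (12.1% of 17985 genes did). By edgeR 1 of the 9 had an unadjusted p under 0.05, as did 4869 of the 17985 genes, and DESeq2 and limma-voom called 0 of the 9. Cxcl16 had the value nearest to it, −0.36 ± 0.13 (edgeR adjusted p = 0.0811).

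The difference of the sheet's effect between zones was itself tested as an interaction with the heart as a block. Between border and infarct zone, and between border and remote zone, 0 of 9 genes passed the threshold by edgeR (0% of 17275 and 0% of 16784 genes). Of the 9, 3 and 1 had an unadjusted p under 0.05, as did 2012 and 3430 of all genes tested. DESeq2 called 0 of the 8 with an adjusted p and 0 of 9, and the gene without one in the first contrast was Ccl4, whose unadjusted DESeq2 p of 0.00242 was the smallest of the 9. Between infarct and remote zone, a contrast added after the values had been seen, edgeR called 0 of 9 (0% of 16902 genes). Of the 9, 6 had an unadjusted p under 0.05, as did 4190 of the 16902 genes. DESeq2 called 4 (Ccl2, Ccl3, Cxcl16 and Cx3cr1), and 1645 of 29753 genes. The value of Ccl3 in this contrast was 3.55 ± 0.87 (edgeR adjusted p = 0.0999), that is, the sheet's effect was higher in the infarct than in the remote zone. Without cell sheet replicate 1 edgeR called 5 of 9 (11.8% of 17041 genes): Ccl2 (1.76 ± 0.43), Ccl3 (4.02 ± 0.86), Ccl4 (1.91 ± 0.54), Cxcl16 (1.57 ± 0.30) and Cx3cr1 (1.81 ± 0.28). A difference between zones in how these genes answered the sheet was thus called or not according to 1 animal and the tool.

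Against sham hearts, which asks what was left of the response under the sheet, 3 of 9 were called in the infarct zone (57.9% of 15687 genes), 1 of 9 in the border zone (43.6% of 15960) and 0 of 9 in the remote zone (0.00660% of 15157). These comparisons share their sham animals with those of untreated MI. In the infarct zone Cx3cl1 fell (19.2, 28.1 and 45.4 CPM against 47.7, 52.8 and 78.7 CPM, −0.92 ± 0.19, edgeR adjusted p = 0.00222) and the groups did not overlap. Ccr1 (0.95 ± 0.36) and Cx3cr1 (1.85 ± 0.67) rose there. The call of Ccr1 was lost by limma-voom (adjusted p = 0.0780) and with a replicate block (edgeR adjusted p = 0.133). With all animals both of these called Ccl7 (limma-voom adjusted p = 0.04985, edgeR with the block 0.0492) as higher. They called Ccl3 too (limma-voom adjusted p = 0.0416, edgeR with the block 0.042). Cx3cl1 was the member called in the border zone (−0.91 ± 0.29, adjusted p = 0.0255), and cell sheet replicate 1 had its lowest value, 10.6 CPM. That call was lost on library size alone (−0.67, adjusted p = 0.0789) and the count was 0 without cell sheet replicate 6 and 2 without cell sheet replicate 3 or 4. In the infarct zone the count was 1 without sham replicate 1, 2, 3 or 6 or cell sheet replicate 3. Without sham replicate 5 the counts were 9 of 9 (70.0% of 15938) in the infarct zone and 8 of 9 (61.6% of 16160), all but Ccr1, in the border zone. In these fits Ccl2 was 1.87 ± 0.31 and 1.41 ± 0.36, Ccl7 2.45 ± 0.28 and 2.28 ± 0.51, and Cx3cr1 3.26 ± 0.28 and 2.74 ± 0.26, in the infarct and border zone respectively.

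Remote from the infarct, none of the 9 in cell sheet hearts differed from sham by the test, whether with all animals, without sham replicate 5 (0 of 9, with 0.111% of 15302 genes) or without that animal and cell sheet replicate 1 (0 of 9, with 0.846% of 15122 genes, a fit added after the data were seen). With all animals 2 of the 9 had an unadjusted p under 0.05 by edgeR, as did 1520 of 15157 genes. By limma-voom 0 of 9 were called, and DESeq2 called 0 of the 3 for which it gave an adjusted p (Ccl2, Cx3cl1 and Ccr1). The sign of the values turned with these animals. With all animals the log2 fold changes were −0.25 ± 0.69 for Ccl2, −1.14 ± 0.91 for Ccl7, −1.58 ± 0.89 for Ccl3, −1.26 ± 0.70 for Cxcl16 and −0.27 ± 0.83 for Cx3cr1. Without sham replicate 5 they were 1.08 ± 0.39, 1.10 ± 0.40, 0.29 ± 0.52, 0.20 ± 0.30 and 1.30 ± 0.57 for the same genes in that order. Without both animals they were 0.65 ± 0.25, 0.68 ± 0.29, −0.22 ± 0.43, −0.15 ± 0.18 and 0.47 ± 0.32.

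The order of the zones within a heart was then compared, with the heart as a block. In sham hearts 3 of 9 differed between infarct and remote zone (32.4% of 15077 genes): Ccl2 (0.76 ± 0.10, higher in 6 of 6 hearts, edgeR adjusted p = 5.05e-05), Ccl7 (0.66 ± 0.14, 6 of 6) and Cx3cl1 (−0.37 ± 0.09, lower in 5 of 6). In untreated MI hearts 3 of 9 did (36.4% of 15901): Ccl7 (0.97 ± 0.31, higher in 5 of 6), Cx3cr1 (1.02 ± 0.18, 6 of 6) and Cx3cl1 (−0.62 ± 0.18, lower in 6 of 6), a count that fell to 1 without MI replicate 1 or 6. In cell sheet hearts 8 of 9 did (62.8% of 15854), all but Ccr1. There Ccl3 was higher in the infarct zone by 2.90 ± 0.59 (edgeR adjusted p = 0.00529), Cx3cr1 by 2.43 ± 0.41, Ccl7 by 2.17 ± 0.42, Ccl4 by 2.04 ± 0.47, Cxcl16 by 1.59 ± 0.35, Ccl2 by 1.57 ± 0.47 and Ccr2 by 1.12 ± 0.41, and Cx3cl1 was lower by −0.82 ± 0.14. Ccl3, Ccl4, Ccl7, Cxcl16 and Cx3cr1 were higher in the infarct zone of 6 of 6 cell sheet hearts, and Ccl2 and Ccr2 of 5 of 6. In the same hearts 16 of 16 macrophage markers were higher in the infarct zone (median 2.39), against 13 of 16 in MI hearts (1.08) and 13 of 16 in sham hearts (0.43).

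**Figure D4:**
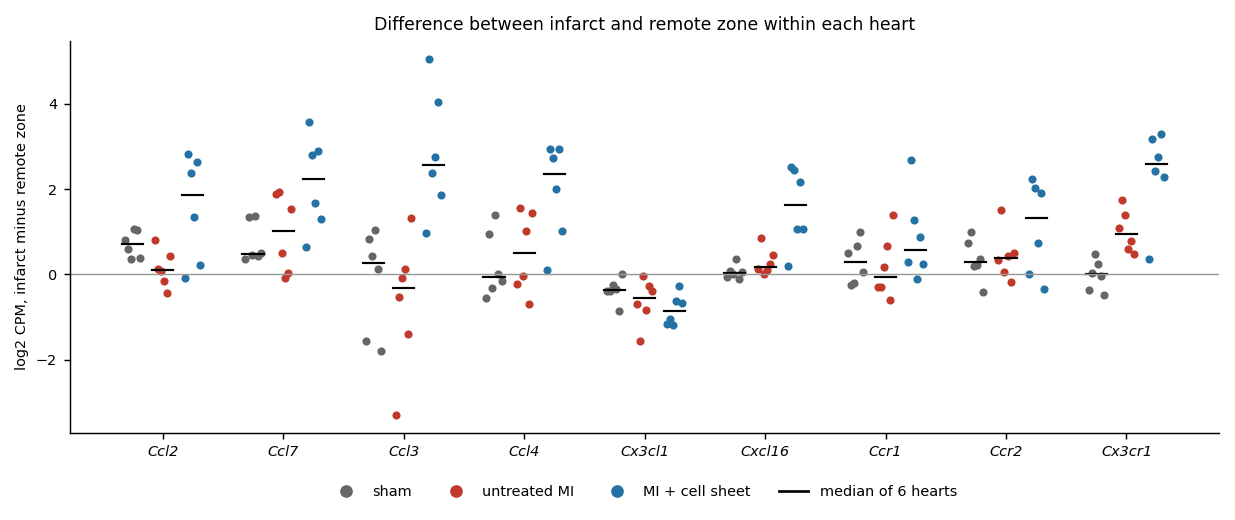
Difference in log2 CPM between the infarct and remote zone of each heart for the 9 genes. Each point is a heart and bars are medians of 6 hearts. For Cx3cr1 the medians were 0.00 in sham, 0.94 in untreated MI and 2.59 in cell sheet hearts, and for Cx3cl1 they were below 0 in each group.

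The interaction of infarction with zone passed the threshold for 2 of 9 genes (28.9% of 16445 genes). The effect of MI on Cx3cr1 was larger in the infarct than in the remote zone (1.03 ± 0.25, edgeR adjusted p = 0.00911, and 1.02 ± 0.29, 0.0233, without sham replicate 5). That on Ccl2 was smaller in the infarct zone (−0.59 ± 0.20, adjusted p = 0.0394), a call that was lost without sham replicate 5 (−0.51 ± 0.21, adjusted p = 0.0948).

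By group medians, Cxcl16 ran from 78.9 CPM in the border zone of MI hearts over 76.3 and 72.7 CPM in the infarct zone of MI and cell sheet hearts, 63.2 CPM in the remote zone of MI hearts and 48.4 CPM in the border zone of cell sheet hearts, to 27.1, 25.2 and 22.0 CPM in the border, infarct and remote zone of sham hearts and 18.4 CPM in the remote zone of cell sheet hearts. Neighbours in this order overlapped, although the cell sheet border zone (37.5 to 55.6 CPM) lay above the 5 sham animals other than replicate 5. Cx3cr1 ran from 23.4 CPM in the infarct zone of MI hearts, over 19.0, 17.8, 12.0 and 11.2 CPM (cell sheet infarct, MI border, cell sheet border and MI remote), to 2.81 CPM in the remote zone of cell sheet hearts and 1.82 to 2.24 CPM in sham hearts. Cx3cl1 ran in part the other way, from 64.9 CPM in the sham remote zone to 28.1 CPM in the cell sheet infarct zone. An exception was the MI remote zone, at 54.1 CPM next to the highest for Cx3cl1 and above all sham medians for Cx3cr1.

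The other chemokines and receptors give the surroundings of these 9 genes. Of 30 other chemokines, 21 were tested in the infarct zone of MI against sham, where 5 rose and 4 fell with all animals and 12 rose and 2 fell without sham replicate 5, of 22 tested. Cxcl6, which attracts neutrophils, rose by 6.53 ± 0.76 (edgeR adjusted p = 0.000107), Pf4, made by platelets and some macrophages, by 1.66 ± 0.30, and Ccl21, which guides cells into lymphatic vessels, by 1.76 ± 0.39. Ccl12, which like Ccl2 acts on Ccr2, was at −0.72 ± 1.00 with all animals and at 2.23 ± 0.39 without sham replicate 5. In the border zone of cell sheet against MI hearts, 4 of 25 fell and none rose. They were Ccl12 (−1.23 ± 0.35, adjusted p = 0.0304), Ccl21 (−1.15 ± 0.34), Xcl1 (−1.35 ± 0.33), a lymphocyte product, and Cxcl2, a neutrophil attractant named here after its values were seen. In the remote zone 3 of 16 fell, among them Ccl12 (−1.63 ± 0.36).

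Of 19 other chemokine receptors, 14 were tested in the infarct zone of MI against sham. Ackr1, a decoy receptor named after its values were seen, and Cmklr1, the chemerin receptor (0.88 ± 0.20), rose, and Ccr10 (−1.82 ± 0.35) and Ccrl2 (−1.02 ± 0.23) fell. Between cell sheet and MI hearts 3 of 11 fell in the remote zone, including the scavenging receptor Ackr2 (−0.77 ± 0.22).

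Of 25 genes of chemokine receptor signalling and ligand shedding, 8 rose and none fell in the infarct zone of MI against sham, and 24 rose without sham replicate 5. Gnb2 (0.55 ± 0.12), a subunit of the G proteins that these receptors use, Rac1 (0.42 ± 0.10), a GTPase of cell migration, and Plcb2 (2.25 ± 0.54), a phospholipase of blood cells, were among them. Of the proteases that release Cx3cl1 and Cxcl16, Adam17 rose by 0.55 ± 0.15 (edgeR adjusted p = 0.00943) in the infarct zone and by 0.56 ± 0.17 in the border zone, and Adam10 was at −0.04 ± 0.07 and 0.03 ± 0.08. Of 16 inducers of these chemokines 13 were tested in the infarct zone, where Csf1 (0.79 ± 0.20), the growth factor of macrophages, the adaptor Myd88 (0.99 ± 0.27) and the receptor Tlr2 (1.99 ± 0.56) rose and none fell, and 12 rose without sham replicate 5. With the sheet, 4 of 25 signalling genes and 2 of 13 inducers fell in the remote zone against untreated MI, and without cell sheet replicate 1 these counts were 20 and 7. Of all genes tested there, 17.1% were called with all animals and 41.6% without that animal.

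The genes whose levels ran most like each member over the 54 libraries were found by Spearman's rho of log2 CPM among 13291 genes. For Ccl2 they were Clic1 (0.94), Ywhaz (0.93) and Ccl7 (0.93), and for Ccl7 Ms4a6a, Nckap1l and Actr2 (0.94 each). Ccl3 ran with Il1rn, Clec4e and Trem1 (0.93 each), Ccl4 with Lpxn, Bcl2a1 and Nckap1l (0.93 each), and Cxcl16 with Snx10, Rap1b and RT1-DMa (0.95 to 0.96). Ccr2 ran with Il21r, Rac2 and Myo1g (0.91 to 0.93) and Cx3cr1 with Gpr65, Otulinl and Fmnl2 (0.93 to 0.94). Cx3cl1 ran with Nmt1, Herpud1 and Usp25 (0.86 to 0.87), and Ccr1 with Tf, Selenop and Lyve1 (0.80 to 0.81). Among the members themselves rho was 0.75 to 0.93 between any pair of Ccl2, Ccl7, Ccl3, Ccl4, Cxcl16, Ccr2 and Cx3cr1, 0.44 to 0.68 between Ccr1 and these 7, and −0.56 to −0.39 between Cx3cl1 and the other 8. The libraries share hearts, zones and sham replicate 5, so that these values describe the series and carry no test.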

How the data were processed

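Poly(A) RNA of 18 hearts was sequenced in 54 libraries, 1 per zone and heart. The authors aligned the reads with STAR to the rat assembly mRatBN7.2 and deposited whole-number counts per gene, not normalized, 1 table per library, and DESeq2 is named for their own tests. Neither the counting tool nor its use of strand is given in the sources used here, so that reads of overlapping or near-identical genes could not be followed. The 5 summary lines of each table name no gene, held 17.0% to 42.8% of the counts and were left out. Groups were taken from the labels.

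Groups were compared with edgeR's quasi-likelihood F test in R 4.3.3 (edgeR 4.0.16, TMM, filterByExpr, Benjamini-Hochberg over all genes tested, threshold 0.05), with the libraries of the 2 groups compared. SE is the absolute log2 fold change divided by the square root of F. Zones of the same heart were compared with the heart as a block, since the labels give them the same animal number (correlations of deviations between infarct and remote zone 0.37 to 0.96 in sham, −0.36 to 0.55 in MI and −0.31 to 0.50 in cell sheet hearts). Levels are CPM with TMM factors over 54 libraries, and log2 levels have an offset of 0.1. Alternatives were DESeq2 1.42.0, limma-voom (limma 3.58.1), library size alone, other filters, all 9 groups in a single fit, a replicate block and leaving out each animal. Scripts were tested on simulated data.

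At the depth of 12699204 to 23397754 gene counts, some members had few counts in the 5 sham animals other than replicate 5. These were Ccl3 (4 to 23 counts), Ccl4 (6 to 32), Cx3cr1 (18 to 42) and Ccl7 (23 to 87). For them counting error may not be small beside the spread between animals. No library pair within a group was identical. The members, the gene lists and the tests were chosen with earlier results of these data known. Named besides the 9 members were the 3 genes of each list with the smallest p in MI against sham (infarct zone), for other chemokines and receptors also the 3 in cell sheet against MI (border zone), and Cxcr6, Adam10 and Adam17. A further gene of that rule is not reported here. Promoters are RefSeq sequences of GRCr8, another assembly than that of the counts, whose coordinates were not mixed with it.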

Additional observations from a re-analysis of the deposited data

Results flagged for a closer look

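Among 81 groups of 6 libraries (9 genes, 3 treatments, 3 zones), 42 held a library whose gap to the others passed Dixon's critical value. That value is passed about 1 time in 20 by independent, normally distributed values. Here it was applied to CPM without logs, and the groups share animals and correlated genes. The share over all genes was not computed, so the count describes these libraries and carries no test. Of these, 24 were the animal labelled sham replicate 5, high for 8 genes in 3 zones. In the infarct, border and remote zone it had 190.4, 171.8 and 92.18 CPM of Ccl2, 98.68, 107.1 and 73.63 CPM of Ccl7, 14.99, 19.73 and 13.81 CPM of Ccl3, and 33.75, 40.22 and 33.28 CPM of Ccl4. It had 78.72, 83.93 and 143 CPM of Cx3cl1, 233.4, 289.5 and 250 CPM of Cxcl16, 93.53, 83.4 and 73.18 CPM of Ccr2, and 23.74, 33.79 and 24.26 CPM of Cx3cr1.

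Cell sheet replicate 1 was high in the remote zone for Ccl7 (15.33 CPM), Ccl3 (2.484 CPM), Ccl4 (3.024 CPM) and Cx3cr1 (14.96 CPM), and in the border zone for Ccl2 (82.53 CPM), Ccl3 (11.14 CPM) and Ccr2 (31.28 CPM). MI replicate 2 was high in the border zone for Ccl3 (138.8 CPM), Ccl4 (13.06 CPM), Ccr1 (56.13 CPM) and Ccr2 (38.03 CPM). Cell sheet replicate 2 was high in the infarct zone for Ccl3 (33 CPM) and Ccr1 (22.95 CPM). In the remote zone MI replicate 5 was high for Ccl2 (73.72 CPM) and MI replicate 1 for Ccl3 (35.19 CPM). MI replicate 1 was low for Cxcl16 in the infarct zone (53.84 CPM) and for Cx3cr1 in the infarct (8.593 CPM) and border zones (7.664 CPM).

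The effect of infarction differed between the infarct and remote zone, by the tested interaction, for Ccl2 (−0.59) and Cx3cr1 (1.03).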

How the results depend on the processing

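Counts of called members moved by over 1.5 times as follows. For MI against sham the infarct zone gave 1 with no filter, the border zone 1 on library size alone, and the remote zone 2 with a replicate block and 0 with all 9 groups in a single fit. The genes called could change as well, also where the count stayed. In that remote zone comparison the main fit called Ccr1, the replicate block Ccl2 and Cx3cr1, and limma-voom Ccl2. For cell sheet against MI the border zone gave 2 by DESeq2, and the remote zone 1 with at least 10 counts in every library, 0 with a replicate block and 1 with all 9 groups. For cell sheet against sham the border zone gave 2 by DESeq2 (of 2 with an adjusted p), at least 10 counts, a replicate block, limma-voom and all 9 groups. Sham hearts gave 0 between infarct and remote zone with no replicate block, and the sheet's infarct against remote difference gave 4 by DESeq2. Leaving out 1 animal gave, for the infarct, border and remote zone, 1 to 9, 2 to 9 and 0 to 8 for MI against sham, 0 to 0, 1 to 3 and 2 to 7 for cell sheet against MI, and 1 to 9, 0 to 8 and 0 to 0 for cell sheet against sham. It gave 0 to 0 for the summed zones, 3 to 4 in sham, 1 to 3 in MI and 6 to 8 in cell sheet hearts, 1 to 2 for the MI difference between zones, 0 to 0 for both border differences and 0 to 5 for the added one.

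Without sham replicate 5 some log2 fold changes turned sign. That animal gave the upper end of each of these ranges over left-out animals. For MI against sham they were, in the infarct zone, −0.24 to 1.95 for Ccl7, −1.22 to 1.54 for Ccl4, −0.75 to 1.00 for Ccr2 and −0.97 to 2.23 for Ccl12, in the border zone −1.23 to 2.06 for Ccl4 and −0.49 to 1.35 for Ccr2, and in the remote zone −0.69 to 1.77 for Ccl7, −1.77 to 1.09 for Ccl4, −0.18 to 1.45 for Cxcl16, −0.88 to 0.81 for Ccr2 and −0.68 to 1.91 for Ccl12. For cell sheet against sham they were, in the infarct zone, −0.50 to 2.11 for Ccl4, −0.60 to 1.14 for Ccr2 and −1.17 to 1.33 for Cxcr6, and in the border zone −0.53 to 1.41 for Ccl2, −0.62 to 2.28 for Ccl7, −0.65 to 2.19 for Ccl3, −1.89 to 1.01 for Ccl4, −0.72 to 0.91 for Cxcl16, −0.65 to 1.11 for Ccr2 and −1.13 to 1.38 for Ccl12. On library size alone Adam10 turned to 0.22 (MI against sham, infarct zone). Of the members' values under an alternative, 2190 kept their side of the threshold (and their direction where called), 80 lost a call, 64 gained one and 17 turned sign with a call. Values called in neither fit could turn sign uncounted, as in cell sheet against sham, remote zone. For MI against sham, Ccl7, Ccl4 and Ccr2 did so by limma-voom with all animals. The causes were not tested.

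The replicate numbers of different treatments come from different rats, and at most 3 of 6 same-numbered pairs deviated together (r over 0.1). With the replicate block no member was called in cell sheet against MI, remote zone (Ccl3 −2.88, edgeR adjusted p = 0.0523, Cxcl16 −1.39, 0.0535). Ccl3, Ccl4 and Cx3cr1 in sham hearts are limited by depth, as is Ccl3 in the remote zone of cell sheet hearts (3 to 46 counts). The 6 animals per group limit the rest.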
